A study of Phyllostachys edulis with 2 samples.

Results

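The cells described here are protoplasts of moso bamboo (Phyllostachys edulis) basal root tips in which PH02Gene00514, a plasma membrane aquaporin described as PIP1-1 in the study's gene tables, reached at least 500 CPM. A UMI is a molecular tag that counts an original transcript once. CPM are the UMIs of a gene divided by all UMIs of a cell, or of summed cells, and scaled to the usual counts-per-million unit. The cells were chosen among those with more than 500 genes and at least 4000 UMIs. This gave 820 PH02Gene00514-high cells among 7093 cells of that depth, out of 15324 barcodes in all. They were 377 of 3423 cells in replicate 1 (11.01%) and 443 of 3670 cells in replicate 2 (12.1%). The remaining 6273 cells, 3046 and 3227 of them in replicates 1 and 2, are called the other cells.

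The study set out a cell atlas of the basal root, an adventitious root that grows from the base of the bamboo shoot. Both libraries were biological replicates of the same tissue, root tips of about 2 cm, labelled 6 to 8 weeks old, that were digested with cell wall enzymes for 3 h, and no treated, mutant or control group was sequenced beside them. Each was captured in droplets and counted from the 3' ends of transcripts. Every comparison below is therefore between cells of the same libraries, with UMIs summed per replicate, and each p-value measures only the spread between these 2 libraries.

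Aquaporins are channels that let water, and in some cases other small molecules, pass through membranes. Plasma membrane intrinsic proteins (PIPs) sit at the cell surface, where PIP1 proteins commonly need a PIP2 partner to reach the membrane, and tonoplast intrinsic proteins (TIPs) sit in the membrane of the vacuole. In roots they carry water across cells and into the vacuoles of elongating cells. The root cap covers the tip of the root, senses gravity, secretes mucilage and sheds its outer cells.

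The study assigned its Cluster 8 to the root cap, and placed its markers in tissue by in situ hybridization. It also reported slight expression of PH02Gene46694 in a few cells of the epidermis. Most of the cells described here fell in a re-derived cluster that was matched to Cluster 8 by its 2 markers. The antisense probes listed for both Cluster 8 markers are given because they state which transcript sequence the root cap assignment rests on. They are written 5′ to 3′ and each was the exact reverse complement of its sense control.
PH02Gene46694, 96 bases: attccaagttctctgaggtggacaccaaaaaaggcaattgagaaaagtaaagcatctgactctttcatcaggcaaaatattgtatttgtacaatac
PH02Gene00521, 91 bases: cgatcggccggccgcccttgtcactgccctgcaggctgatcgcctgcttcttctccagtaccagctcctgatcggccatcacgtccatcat
The G and C content was 35.4% in the PH02Gene46694 probe and 62.6% in the PH02Gene00521 probe.

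Depth was close in both kinds of cells, and slightly lower in PH02Gene00514-high cells. PH02Gene00514-high cells had a median of 7788 UMIs in replicate 1 and 8137 in replicate 2, against 8003 and 8851 UMIs in the other cells, and the medians of genes detected were 3170 and 3328 against 3221 and 3452. The highest UMI counts of a single cell were 26879 and 38436 among PH02Gene00514-high cells and 29912 and 69583 among the other cells. Doublets were neither called nor removed. The libraries shared 15 barcode sequences, which gave 11 cells of at least 4000 UMIs and no PH02Gene00514-high cell.

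PH02Gene00514 itself chose the cells, so its values are a description. A PH02Gene00514-high cell carried from 3 to 58 of its UMIs in replicate 1 and from 3 to 68 in replicate 2, with a median level of 948 and 967 CPM. Summed over cells, the gene stood at 1169 and 1231 CPM in these cells and at 76.9 and 90.7 CPM in the other cells. No UMI of it was found in 1854 and 1718 of the other cells (60.9% and 53.2%). The level had no gap at the threshold. The lowest values inside were 502 and 500.2 CPM and the highest outside were 498.6 and 497.9 CPM, and 125 cells lay between 500 and 600 CPM beside 198 between 400 and 500 CPM.

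Where these cells fell was read from a clustering of all cells whose variable genes left out the 57 genes named by the study, PH02Gene00514 included. It gave 14 clusters, which are called by the number of the study's cluster whose markers they matched. Matched Cluster 8 held 521 of the 820 PH02Gene00514-high cells (63.5%, exact 95% interval 60.1 to 66.8, counting error only), with 63.9% in replicate 1 and 63.2% in replicate 2. These were 64.5% of its 808 cells of at least 4000 UMIs, so that 287 cells of the same cluster lay under the threshold. Matched Cluster 6, given to the epidermis in the study, held 73 PH02Gene00514-high cells, and matched Cluster 7, another root cap cluster, held 41.

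The study named PH02Gene00514 among genes expressed early along its ground tissue trajectory, which it started in Cluster 10. Matched Cluster 10, given to ground tissue in the study, was small at this depth but stood out by its share. Of its 54 cells of at least 4000 UMIs, 46 (85.2%, exact 95% interval 72.9 to 93.4) were PH02Gene00514-high. Only 6.51% of the 829 cells of matched Cluster 10 reached 4000 UMIs, since its median cell held 1176 UMIs, so the minimum depth sets how many of its cells could be counted. A cluster without a match held 66 PH02Gene00514-high cells, 16 from replicate 1 and 50 from replicate 2. None of the 456 cells of matched Cluster 9, the initial cells of the study, reached the threshold, which allows a share of up to 0.806% (exact 95% interval).

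**Figure D1:**
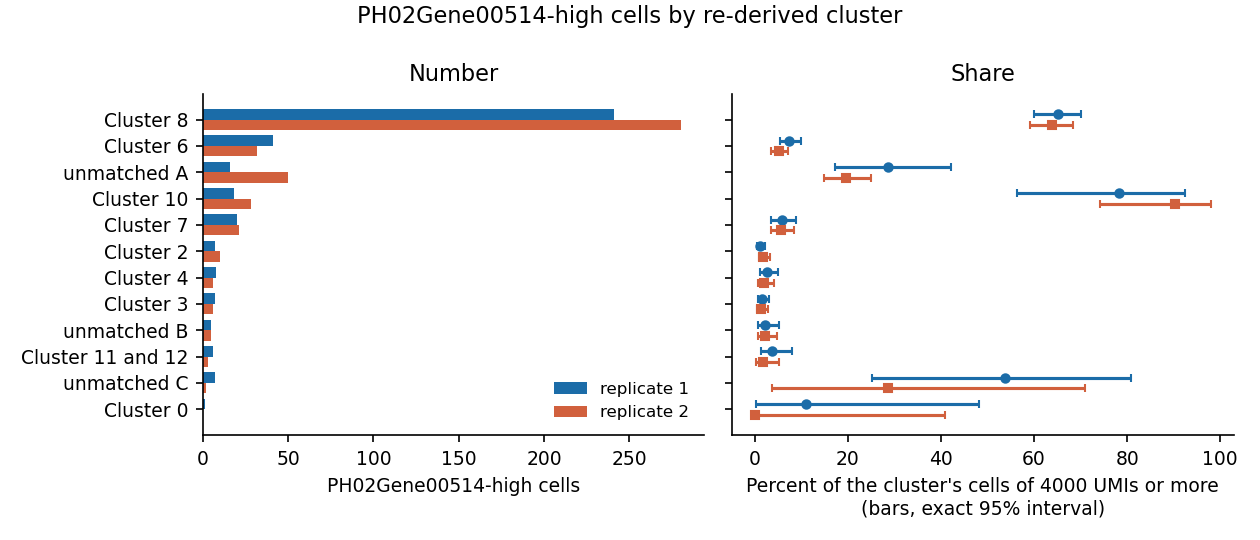
PH02Gene00514-high cells in each re-derived cluster, as numbers on the left and as the percent of the cluster's cells of at least 4000 UMIs on the right, with exact 95% intervals, by replicate (blue, replicate 1; orange, replicate 2). Most lay in matched Cluster 8 (521 of 820), while the highest share was in matched Cluster 10 (46 of 54), and clusters without any such cell are not drawn.

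The other aquaporin genes were without exception higher in PH02Gene00514-high cells than in the other cells. The study's tables describe 6 aquaporin genes besides PH02Gene00514, and all 6 passed the test against the other cells, where 29.8% of the 25543 genes tested were higher and 30.2% lower (edgeR quasi-likelihood test, Benjamini-Hochberg adjusted over all genes). Their median log2 fold change was 2.96, beside -0.05 over all genes tested. The list was drawn from tables that the study made on these same libraries, and is no independent evidence. The other cells held almost no cells of matched Clusters 0, 1 and 5, of which 16 of 3567 and 1 of 2015 reached 4000 UMIs.

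Among the PIPs, PH02Gene26718, also described as PIP1-1, stood at 201 and 255 CPM in PH02Gene00514-high cells of replicates 1 and 2 and at 12.7 and 17.2 CPM in the other cells. Both levels in PH02Gene00514-high cells lay far above both in the other cells, with a log2 fold change of 3.84 ± 0.13 (SE, adjusted p = 1.09e-19), or 14.4-fold. The partial PIP1 gene PH02Gene16291 stood at 93.7 and 101 against 22.3 and 24.4 CPM, a log2 fold change of 1.98 ± 0.10. PH02Gene26386, described as a probable PIP2-6, stood at 187 and 193 against 19.5 and 22.3 CPM, a log2 fold change of 3.09 ± 0.10. Reads of near-identical PIP copies can be counted for one another, and how far this touched PH02Gene26718 and PH02Gene16291 was not tested.

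Both genes described only as water channel proteins followed. PH02Gene19725 stood at 3416 and 3160.1 CPM in PH02Gene00514-high cells and at 311 and 375 CPM in the other cells (log2 fold change 3.17 ± 0.10, adjusted p = 3.98e-20, 9.03-fold). PH02Gene33633 stood at 245 and 313 against 34.6 and 40.2 CPM, a log2 fold change of 2.82 ± 0.11. The vacuolar channel gene PH02Gene03621, TIP1-1, showed the smallest difference of the 6, at 2396 and 2204 against 693 and 695 CPM (log2 fold change 1.64 ± 0.08, adjusted p = 9.54e-16). By log2 fold change, the 6 aquaporins ranked from 48th (PH02Gene26718) to 3147th (PH02Gene03621) of the 25543 genes.

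**Figure D2:**
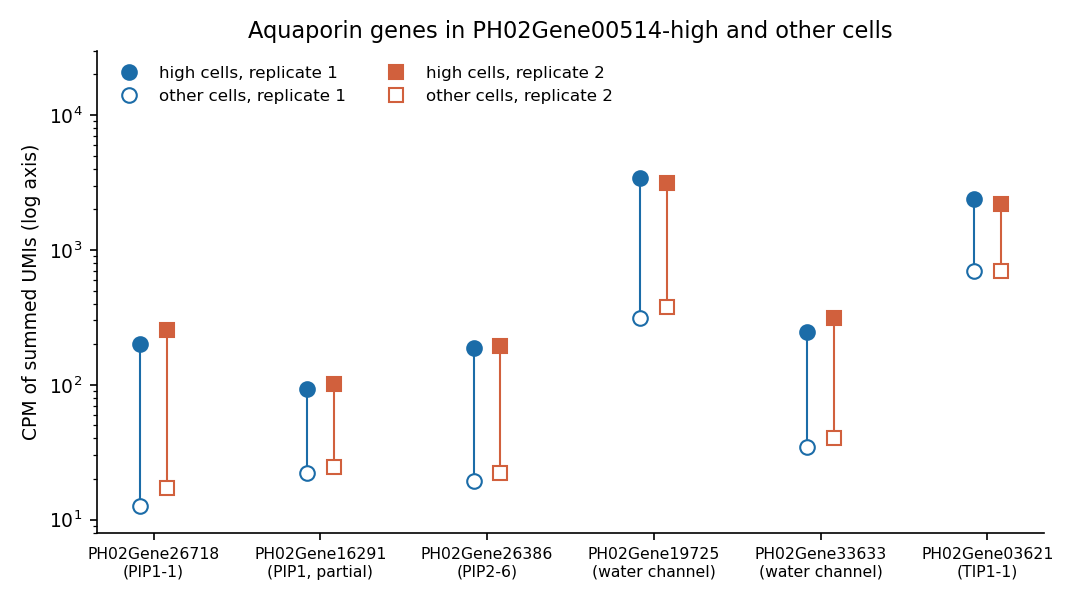
CPM of the 6 aquaporin genes on a log axis, from UMIs summed over PH02Gene00514-high cells (filled) and other cells (open) of each replicate (blue circles, replicate 1; orange squares, replicate 2), joined by a line. For every gene both filled points lie above both open points, from 2396 and 2204 against 693 and 695 CPM for PH02Gene03621 to 201 and 255 against 12.7 and 17.2 CPM for PH02Gene26718.

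The aquaporins also occurred together in single cells. After each cell was thinned to 4000 UMIs, the median number of the 6 genes with a UMI was 3 and 4 in PH02Gene00514-high cells of replicates 1 and 2 and 2 in the other cells of both. At least 4 of the 6 were found in 47.7% and 54.4% of PH02Gene00514-high cells, against 3.02% and 4.15% of the other cells. None was found in 0.265% and 0.677% against 11.2% and 10.1%. Their summed level in the median cell was 5647 and 5028 CPM against 736 and 815 CPM.

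Shares of cells with a UMI differed by gene. PH02Gene26718 had a UMI in 41.1% and 50.6% of thinned PH02Gene00514-high cells, in 4.89% and 6.23% of the other cells and in 1.61% and 0.966% of matched Cluster 9. In cells as deposited the shares were 59.4% and 64.3%, 9.09% and 11.8% and 4.02% and 3.86%. Matched Cluster 9, whose median cell over both replicates held 9020 UMIs, is given as a cluster without any PH02Gene00514-high cell. How far its UMIs came from free RNA in the droplets or from its own transcripts was not tested. PH02Gene26386 had a UMI in 44.3% and 44.5% of thinned PH02Gene00514-high cells, 6.63% and 7.53% of the other cells and 3.21% and 2.90% of matched Cluster 9. PH02Gene19725 and PH02Gene03621 were widespread, with a UMI in 38.96% and 41.1% and in 64.7% and 57.97% of thinned cells of matched Cluster 9, so a UMI of either marks no particular cell.

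**Figure D3:**
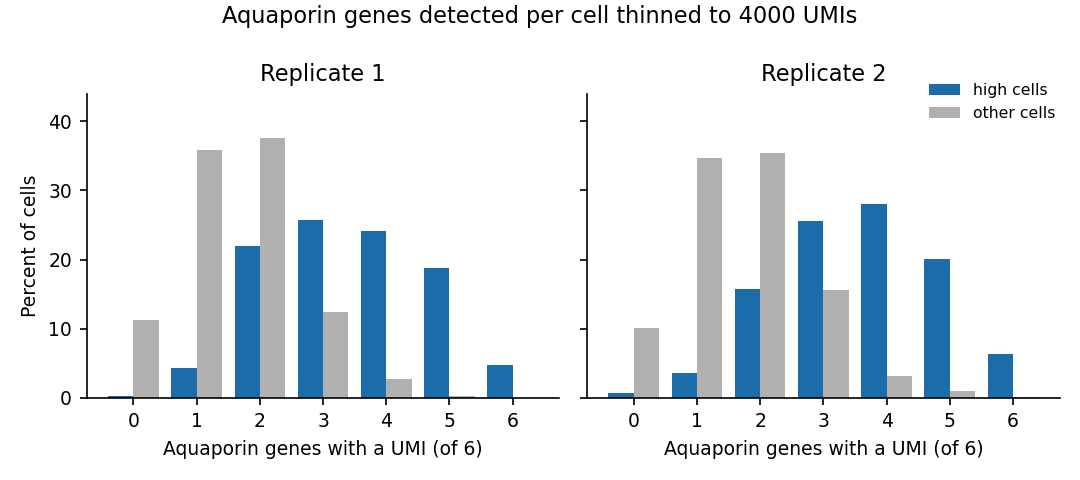
Percent of cells (vertical axis) with a UMI of 0 to 6 of the 6 aquaporin genes (horizontal axis), after thinning to 4000 UMIs, for PH02Gene00514-high cells (blue) and other cells (grey) in each replicate. The other cells peak at 2 genes in both replicates and PH02Gene00514-high cells at 3 in replicate 1 and 4 in replicate 2.

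The same aquaporins were also higher in PH02Gene00514-high cells than in other cells of their own cluster. Within matched Cluster 8, 521 PH02Gene00514-high cells (241 and 280) were compared with the 287 cells (129 and 158) under the threshold. There 7.37% of 13728 genes tested (1012) were higher and 5.67% (779) lower, and the median log2 fold change over all of them was 0.00. DESeq2, run on 33816 genes without the low-count filter, called 336 higher and 421 lower. In the edgeR test all 6 aquaporins were again higher, with a median of 1.22. PH02Gene26718 stood at 238 and 304 CPM above the threshold and 60.8 and 96.2 CPM below it, a log2 fold change of 1.76 ± 0.18 (adjusted p = 3.93e-08). The values for PH02Gene19725 were 4355 and 3674 against 1539.9 and 1551 CPM, a log2 fold change of 1.36 ± 0.13. PH02Gene33633 gave 1.58 ± 0.17, PH02Gene03621 1.09 ± 0.13, PH02Gene26386 1.00 ± 0.16 and PH02Gene16291 0.90 ± 0.19 (adjusted p = 0.00185), all on the log2 scale.

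Outside matched Cluster 8 these genes were also higher, taken over all remaining clusters together. The 299 PH02Gene00514-high cells of all remaining clusters (136 and 163) were set against all other cells, where 9.88% of 25014 genes tested were higher and 10.2% lower. All 6 aquaporins were higher, with a median log2 fold change of 2.44 beside -0.05 over all genes. PH02Gene26718 stood at 129.5 and 158 CPM in these cells (log2 fold change 3.14 ± 0.15, adjusted p = 5.57e-14) and PH02Gene19725 at 1586 and 2149 CPM (2.32 ± 0.13). By cluster, PH02Gene19725 stood at 1044 and 880.3 CPM in the PH02Gene00514-high cells of matched Cluster 6 and at 358 and 364 CPM in its remaining cells. In matched Cluster 7 the levels of PH02Gene19725 were 1079.9 and 1045 against 374 and 373 CPM, and in matched Cluster 10 its PH02Gene00514-high cells reached 4489 and 5668 CPM. Matched Cluster 10 gave 46 of the 299 cells. In the PH02Gene00514-high cells of matched Cluster 7, PH02Gene16291 stood at 23.6 and 126 CPM, against 22.3 and 24.4 CPM in all other cells. The 6 genes were not tested within single clusters outside matched Cluster 8.

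Aquaporin levels followed that of PH02Gene00514 on both sides of the threshold. PH02Gene19725 stood at 216 and 226 CPM in cells without a UMI of PH02Gene00514, at 812 and 948 CPM in cells of 250 to 500 CPM, at 2391 and 1847 CPM in cells of 500 to 1000 CPM and at 5764 and 6206 CPM in cells of 2000 CPM and more. PH02Gene26718 went from 9.29 and 7.56 to 534 and 548 CPM between the lowest and the highest of these classes. Inside matched Cluster 8, PH02Gene19725 went from 1053 and 704 to 6110.2 and 6199 CPM, and outside it from 204 and 222 to 3982 and 6239 CPM, although the highest class outside held only 9 and 12 cells. The Cluster 8 marker PH02Gene46694 took another course, with 606 and 672 CPM in the lowest and 430.0 and 371 CPM in the highest class inside matched Cluster 8. The class values are sums over cells sorted by a measured gene and were given no test.

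**Figure D4:**
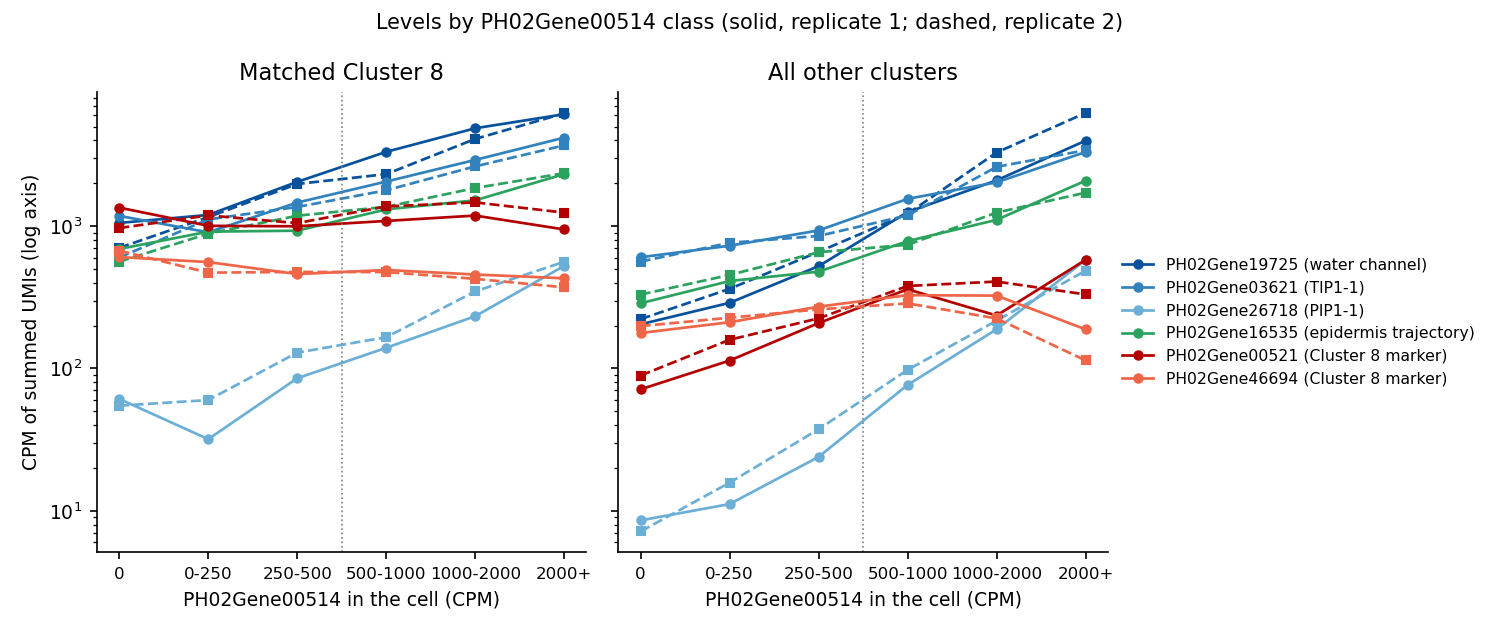
Level of 6 genes (CPM of summed UMIs, log axis) in cells grouped by their PH02Gene00514 level in CPM, inside matched Cluster 8 (left) and in all other clusters (right), with replicate 1 as solid lines and replicate 2 as dashed lines; the dotted vertical line marks 500 CPM. The aquaporins in blue reach their highest level in the highest class in both panels, while PH02Gene46694 stays between 371 and 672 CPM within matched Cluster 8.

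Marker genes of the root cap did not move as a group. Of the 8 root cap markers of the study, 5 were higher and 3 lower in PH02Gene00514-high cells than in the other cells, with a median log2 fold change of 0.53. The Cluster 8 marker PH02Gene00521, a homolog of the protein GDAP2, stood at 846 and 1050.0 CPM against 136 and 174 CPM, a log2 fold change of 2.53 ± 0.11 (adjusted p = 4.79e-17). PH02Gene46694, the other Cluster 8 marker, stood at 418 and 377 against 209.7 and 228 CPM (0.77 ± 0.09, adjusted p = 1.86e-08). The Cluster 7 markers PH02Gene07817 and PH02Gene17668, the latter a zinc finger protein, were higher by 0.85 and 0.28, and PH02Gene48860 of Cluster 12 by 1.45. PH02Gene15627 and PH02Gene26026 of Cluster 11 and PH02Gene28681 of Cluster 12, a glutathione S-transferase, were lower, at -1.26, -0.51 and -2.55. The calls of PH02Gene17668 and PH02Gene26026 were lost with DESeq2 (adjusted p = 0.0575 and 0.0965).

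Within matched Cluster 8, 7 of the 8 root cap markers could be tested, of which none passed as higher and 2 were lower above the threshold (PH02Gene07817 at -0.41 ± 0.14, adjusted p = 0.0443, and PH02Gene26026 at -1.31). Neither of these calls held with the coarser clustering at a resolution of 0.6, whose main cluster was matched to Clusters 8 and 10 together (adjusted p = 0.0744 and 0.212). PH02Gene46694 stood at 469 and 438 CPM above the threshold and 525 and 492 CPM below it (log2 fold change -0.18 ± 0.14, adjusted p = 0.419), and PH02Gene00521 at 1100.4 and 1389 against 1068 and 1095 CPM (0.19 ± 0.14, adjusted p = 0.388), so neither difference passed the test. Outside matched Cluster 8, PH02Gene46694 stood at 318 and 257 CPM in PH02Gene00514-high cells (0.26 ± 0.11, adjusted p = 0.104) and likewise missed it, whereas PH02Gene00521 was higher at 1.12 ± 0.12. Against the remaining cells of the root cap clusters alone (matched Clusters 7, 8, 11 and 12, 609 and 675 cells), where 25.9% of 19386 genes were higher and 25.6% lower, 1 of the 8 was higher and 6 were lower, while all 6 aquaporins were higher with a median of 2.13. This comparison kept all PH02Gene00514-high cells, also those of other clusters, so the mix of clusters differed between its sides. In it, PH02Gene07817, PH02Gene17668 and PH02Gene48860 turned to -0.75, -0.46 and -0.73. The cells are therefore called by their PH02Gene00514 level here and not by a tissue.

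Markers of the ground tissue were divided by cluster. Only 16 of 3567 cells of matched Cluster 0 and 1 of 2015 of matched Clusters 1 and 5 reached 4000 UMIs. The other cells therefore held almost no cells of these ground tissue clusters. Both Cluster 10 markers were higher in PH02Gene00514-high cells. PH02Gene36478, which the tables do not describe, stood at 501 and 514 CPM against 38.2 and 48.2 CPM (log2 fold change 3.47 ± 0.11, adjusted p = 3.73e-20), the largest difference of any marker tested here. It had a UMI in 46.4% and 50.1% of thinned PH02Gene00514-high cells, 11.03% and 13.7% of the other cells and 8.03% and 5.80% of matched Cluster 9. PH02Gene15920 stood at 6486 and 6111 against 1433 and 1517 CPM (2.01 ± 0.09). Both also differed within matched Cluster 8, by 1.38 ± 0.15 and 0.66 ± 0.13 (adjusted p = 0.00069). Of the remaining 5 ground tissue markers, the endoglucanase PH02Gene04869 and PH02Gene45651 were higher at 0.62 and 0.73, PH02Gene05035 and PH02Gene29708 were lower at -0.71 and -0.61, and PH02Gene28983 did not pass the test at -0.17 (adjusted p = 0.217), though it did so with the replicate as a block (-0.18, adjusted p = 0.0379). Inside matched Cluster 8, PH02Gene45651 was lower at -0.54 ± 0.15, a call lost at a resolution of 0.6 (adjusted p = 0.118).

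All 7 ground tissue markers were detected in both kinds of cells, and their summed level was 8428 and 7852 CPM in PH02Gene00514-high cells, most of it from PH02Gene15920, against 2875 and 2835 CPM in the other cells. The latter held almost no cells of matched Clusters 0, 1 and 5, for lack of depth. For the 3 epidermis markers the sums were 7564 and 7343 against 4098 and 4548 CPM, of which PH02Gene29592 alone gave 7013 and 6752 and 3296 and 3688 CPM while the other 2 were lower. That of the 8 root cap markers was 3425 and 3699 against 1953 and 2134 CPM. Inside matched Cluster 8, the root cap sum was 3864 and 4314 CPM above and 4455 and 4318 CPM below the threshold. Their part in the differences between these cells was not tested.

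**Figure D5:**
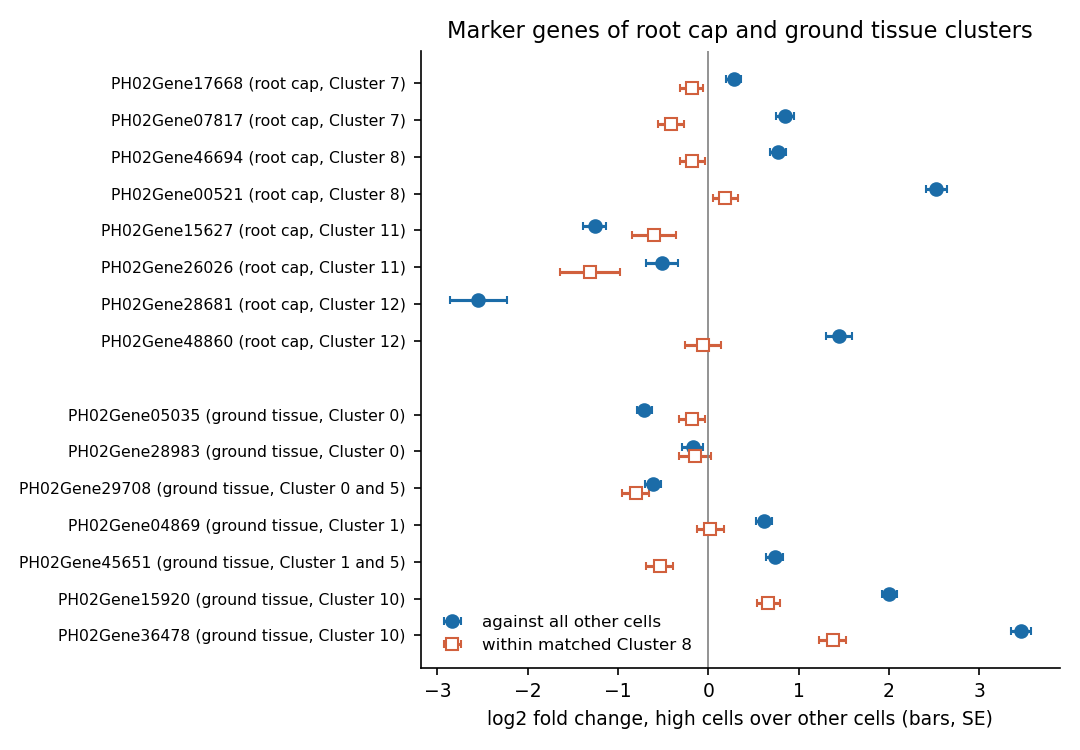
Log2 fold change with its SE of the root cap markers (upper rows) and ground tissue markers (lower rows) of the study in PH02Gene00514-high cells, against all other cells (blue circles) and within matched Cluster 8 (open orange squares). The Cluster 8 markers PH02Gene00521 and PH02Gene46694 are at 2.53 and 0.77 against all other cells and at 0.19 and -0.18 within the cluster, while the Cluster 10 marker PH02Gene36478 is at 3.47 and 1.38; PH02Gene28681 could not be tested within the cluster.

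PH02Gene16535, a gene followed along the epidermis trajectory in the study, was also higher. It stood at 1342 and 1463 CPM in PH02Gene00514-high cells and 366 and 437 CPM in the other cells (log2 fold change 1.72 ± 0.10, adjusted p = 4.58e-15). Inside its main cluster, matched Cluster 8, it was higher by 0.78 ± 0.14 (adjusted p = 0.000226), a call that was lost at a resolution of 0.6 (0.46, adjusted p = 0.0761). All cells of matched Cluster 10 together stood at 1793 and 1789.7 CPM of PH02Gene16535 and those of matched Cluster 8 at 1325 and 1478. The levels were 748 and 741 CPM for the epidermis (matched Cluster 6) and 94.2 and 119 for the initial cells (matched Cluster 9). The epidermis marker PH02Gene29592, a homolog of translationally controlled tumor protein, was also higher, at 7013 and 6752 against 3296 and 3688 CPM (0.89 ± 0.08), whereas PH02Gene08613 and PH02Gene14566 were lower at -0.90 and -0.52. Neither passed the test within matched Cluster 8. Against the remaining cells of the root cap clusters PH02Gene08613 turned to 0.80 (adjusted p = 7.35e-06) and PH02Gene14566 missed the test at -0.17 (adjusted p = 0.11).

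Markers of the initial cells were lower. All 3 fell below their level in the other cells, with a median log2 fold change of -2.40. PH02Gene30511, a phenylalanine ammonia-lyase, the enzyme that opens the phenylpropanoid pathway, stood at 42.7 and 83.7 CPM against 346 and 297 CPM (-2.40 ± 0.15, adjusted p = 8.73e-14). PH02Gene30509 of the same family stood at 272 and 255 against 659.7 and 619 CPM (-1.37 ± 0.09). PH02Gene04325 stood at 5.53 and 33.1 against 124 and 115 CPM (-2.62 ± 0.23), and its levels in PH02Gene00514-high cells differed between the libraries. Cells of the same cluster were low in these genes too. Only PH02Gene30509 was lower within matched Cluster 8, at -0.43 (adjusted p = 0.0457), a call lost at resolutions of 0.6 and 1.0 (adjusted p = 0.387 and 0.140) and without the low-count filter (adjusted p = 0.0986), and against the remaining cells of the root cap clusters PH02Gene04325 missed the test at -0.11 (adjusted p = 0.812).

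The gene lists from here on came from the study's tables of these same libraries, and their counts are no independent evidence. Against the other cells, 29.8% of all genes tested were higher and 30.2% lower. These shares were 7.37% and 5.67% within matched Cluster 8, and 25.9% and 25.6% against the remaining cells of the root cap clusters. Genes of wall loosening and extension were mostly higher in PH02Gene00514-high cells. Of 13 listed genes (expansins, xyloglucan endotransglucosylases, endoglucanases and EXORDIUM-like genes), 12 were higher and 1 lower, with a median log2 fold change of 1.60. Xyloglucan endotransglucosylases cut and rejoin the xyloglucans that tether cellulose, and PH02Gene05411 of this family stood at 299 and 282 CPM against 30.6 and 42.5 CPM (2.90 ± 0.12, adjusted p = 4.52e-18). The expansin-A31 gene PH02Gene14288, of a family that loosens walls at acid pH, stood at 322 and 281 against 36.9 and 50.4 CPM (2.70 ± 0.11). PH02Gene08569, EXORDIUM-like, stood at 279 and 254 against 39.6 and 43.6 CPM (2.59 ± 0.10). Inside matched Cluster 8, 7 of the 13 were higher and none lower, with a median of 0.45, and against the remaining cells of the root cap clusters 12 of the 13 were higher and none lower. PH02Gene08569 differed by 1.06 ± 0.15 within matched Cluster 8.

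All 5 listed genes of wall glycoproteins and related proteins were higher as well, with a median of 1.89. They included PH02Gene22926, the fasciclin-like arabinogalactan protein 11, at 122 and 124 against 18.5 and 20.9 CPM (2.55 ± 0.10), and PH02Gene28034, a BURP domain protein, at 309 and 310.3 against 66.5 and 64.7 CPM (2.15 ± 0.09). Of these 5, 3 were higher and none lower within matched Cluster 8.

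AUX/IAA genes code for repressors that auxin removes, and many are themselves induced by auxin. Of 21 tested, 18 were higher and 1 lower in PH02Gene00514-high cells, with a median log2 fold change of 1.52. PH02Gene01142 stood at 219 and 203 CPM against 20.4 and 24.4 CPM (3.14 ± 0.10, adjusted p = 1.09e-19) and PH02Gene09243 at 92.4 and 74.7 against 8.94 and 10.5 CPM (3.00 ± 0.12). PH02Gene12702, IAA20, stood at 247 and 265 against 39.3 and 50.9 CPM (2.42 ± 0.11). The family split within matched Cluster 8, where 4 were higher and 4 lower, with a median of 0.25. PH02Gene01142 and PH02Gene09243 remained higher there, at 1.18 ± 0.16 and 1.52 ± 0.21, while IAA20 missed the test at 0.26 ± 0.15 (adjusted p = 0.244). Against the remaining cells of the root cap clusters 10 of the 21 were higher and 7 lower, with a median of 0.30.

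Class III peroxidases, wall enzymes that can stiffen or loosen it, moved in both directions. Of 16 listed genes, 11 were higher and 5 lower, with a median of 0.77. The initial cell marker PH02Gene04325, given above, is among the 5 lower genes. Within matched Cluster 8, 5 of the 16 were higher and none lower. Against the remaining cells of the root cap clusters 10 were higher and 3 lower. PH02Gene44955, peroxidase 3-like, stood at 169 and 185 against 22.9 and 27.1 CPM (2.73 ± 0.10) and PH02Gene23181, peroxidase 72, at 343 and 295 against 48.4 and 53.7 CPM (2.55 ± 0.10). PH02Gene46530, peroxidase 5-like, was lower at 168 and 192 against 805 and 713 CPM (-2.16 ± 0.10), but higher by 0.79 against the remaining cells of the root cap clusters alone.

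Genes of the phenylpropanoid pathway, which supplies lignin precursors, and of detoxification were mostly lower. Of 12 phenylpropanoid genes, 10 were lower and 2 higher, with a median of -1.22. The initial cell marker PH02Gene30511, given above, is among the 10. The cinnamate 4-hydroxylase ortholog PH02Gene44264 stood at 12.6 and 11.9 against 50.6 and 44.98 CPM (-2.05 ± 0.15) and the PAL1 ortholog PH02Gene40449 at 20.9 and 24.8 against 82.6 and 72.9 CPM (-1.84 ± 0.13). Of 10 glutathione S-transferase genes, whose products conjugate reactive compounds, 8 were lower and 2 higher, with a median of -1.16. The root cap marker PH02Gene28681, given above, is among the 8. PH02Gene34975, described as GSTU6, stood at 974 and 1047 against 2433 and 2417 CPM (-1.35 ± 0.09), and PH02Gene10341, described as U17, was higher at 527 and 558 against 148 and 172 CPM (1.68 ± 0.09). Within matched Cluster 8, 5 of 9 glutathione S-transferases and 3 of 12 phenylpropanoid genes were lower and none of either list was higher.

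Lipoxygenases start the oxidation of fatty acids that leads, among others, to jasmonate. In the list of 10 jasmonate genes, 6 were higher and 4 lower, with a median of 1.13, and PH02Gene51050, linoleate 9S-lipoxygenase 2, stood at 756 and 868 against 148 and 172 CPM (2.26 ± 0.10). Of the 10 jasmonate genes, 2 were higher and 3 lower within matched Cluster 8 (median -0.17), and against the remaining cells of the root cap clusters 4 were higher and 4 lower (median -0.10). Among 14 genes of proteases tied to cell death, 10 were higher and 3 lower, with a median of 0.91. PH02Gene24144, a subtilisin-like protease, stood at 784 and 971 against 212 and 262 CPM (1.80 ± 0.11), and PH02Gene19838, cysteine proteinase 2, at 107 and 101 against 21.8 and 23.1 CPM (2.13 ± 0.10). All 6 autophagy genes were lower, with a median of -0.41, from -2.08 for PH02Gene29317, the ATG13 homolog, to -0.33. None of the 6 passed the test within matched Cluster 8 (median 0.05), and against the remaining cells of the root cap clusters 4 were lower and 1 higher.

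Of 26 listed orthologs of vascular genes, 19 passed the filter on low counts, of which 12 were higher in PH02Gene00514-high cells, 1 was lower and 6 missed the test. The ATHB-8 ortholog PH02Gene34818, of a family that patterns vascular tissue, stood at 23.3 and 22.4 against 2.39 and 3.13 CPM (2.94 ± 0.19), and the secondary wall cellulose synthase gene PH02Gene13967 at 44.8 and 44.3 against 10.3 and 10.1 CPM (2.04 ± 0.12). The most abundant was PH02Gene10076, a cysteine protease described as XCP2 and also on the list of proteases, at 209 and 287 against 84.5 and 87.2 CPM (1.45 ± 0.11). The summed level of the list was 474 and 547 CPM against 215 and 212 CPM, a large part of it from PH02Gene10076, with 5 and 3 of its 26 genes at 0 in PH02Gene00514-high cells. The sum within matched Cluster 8 was 517 and 611 CPM above and 545 and 487 CPM below the threshold, so that the replicates went opposite ways, and PH02Gene10076 missed the test at -0.27 ± 0.16 (adjusted p = 0.269). It also missed it against the remaining cells of the root cap clusters (0.05, adjusted p = 0.718). Of the 14 tested within matched Cluster 8, 2 were higher and none lower.

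Heat shock genes, which respond to handling, bear on cells released by enzymes. Of 12 listed, 7 were higher and none lower, with a median of 0.39. PH02Gene14139, a small chloroplast heat shock protein, stood at 362 and 378 against 75.2 and 86.7 CPM (2.11 ± 0.10), and PH02Gene03497, a class I small heat shock protein, at 289.6 and 307 against 136 and 149.5 CPM (0.98 ± 0.09). Against the remaining cells of the root cap clusters the list turned, with 9 of the 12 lower and 2 higher, PH02Gene03497 among the former at -0.34. The summed level of the 12 genes was 1804 and 1785 CPM against 993 and 997 CPM, and within matched Cluster 8 it was 1941 and 2007 CPM above and 1785 and 1909.7 CPM below the threshold. The part of handling in the other differences was not tested.

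Genes of starch and sucrose metabolism bear on the root cap, whose inner cells hold the starch grains that settle with gravity. Of 11 listed, 6 were higher and 5 lower, with a median log2 fold change of 0.33. The largest difference upward was in PH02Gene16676, galactinol synthase 2, whose product feeds the raffinose sugars, at 384 and 364 against 79.3 and 92.3 CPM (2.04 ± 0.09), and the largest downward in PH02Gene26446, a cell wall invertase that splits sucrose outside the cell, at 182 and 165 against 473 and 437 CPM (-1.48 ± 0.09). Of 10 tested within matched Cluster 8, 1 was higher and 2 were lower. Against the remaining cells of the root cap clusters 5 of the 11 were higher and 4 lower, with a median of -0.23, and PH02Gene16676 was higher by 0.24 only (adjusted p = 0.0231).

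Transcription factors included both directions. Of 23 WRKY genes tested, a family with many roles in defence, 13 were higher and 8 lower, and PH02Gene06791, WRKY76, stood at 417 and 455 against 46.9 and 60.03 CPM (2.94 ± 0.11). Of 26 NAC genes, 11 were higher and 14 lower, with PH02Gene22459 at 92.7 and 107 against 13.1 and 16.7 CPM (2.66 ± 0.12) and PH02Gene17549, NAC 29-like, at 59.9 and 58.2 against 218 and 201 CPM (-1.91 ± 0.10). PH02Gene17549 missed the test against the remaining cells of the root cap clusters (-0.03, adjusted p = 0.842). Of 27 ethylene response factors, 13 were higher and 11 lower, and PH02Gene19264 stood at 386 and 425 against 56.9 and 67.9 CPM (2.61 ± 0.10). Of 13 calcium-dependent protein kinases, 3 were higher and 8 lower. Within matched Cluster 8, none of 22 WRKY genes was higher and 4 were lower, and of 25 NAC genes 1 was higher and 7 were lower. There, 2 of the 27 ethylene response factors were higher and 4 lower, and none of the 13 kinases was higher and 5 were lower. Against the remaining cells of the root cap clusters, 9 of the 23 WRKY genes were higher and 10 lower. In that comparison 3 of 25 NAC genes were higher and 12 lower, and 11 ethylene response factors higher and 12 lower. None of the kinases was higher in it and 10 were lower. The 3 PLETHORA orthologs that passed the filter, factors of the root stem cell region, were all lower, with a median of -1.71. Outside matched Cluster 8 only 1 of the 3 was lower, within it the 1 that could be tested did not pass, and against the remaining cells of the root cap clusters 1 of 2 was higher and none lower.

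Among genes of at least 50 CPM in the higher group of cells in both replicates, most of the largest differences upward lay in genes that the study's tables do not describe. The largest, PH02Gene42685, stood at 157 and 168 CPM in PH02Gene00514-high cells and 6.21 and 7.36 CPM in the other cells (log2 fold change 4.49 ± 0.11, 22.5-fold, adjusted p = 9.69e-22). After it came PH02Gene16364 (3.87 ± 0.14), the PIP1-1 gene PH02Gene26718, PH02Gene17719 (3.74 ± 0.13) and PH02Gene21616 (3.69 ± 0.14). Among the 14 genes with the largest differences upward at this level, 2 have a description, namely PH02Gene26718 and PH02Gene45952, a basic blue protein-like gene of the small copper proteins, at 484 and 467 against 35.5 and 48.1 CPM (3.42 ± 0.11). The largest difference downward was in PH02Gene33832, at 8.29 and 12.9 against 101 and 86.9 CPM (-3.20 ± 0.16), followed by PH02Gene33183 (-2.80 ± 0.17). PH02Gene43520, a nudix hydrolase, stood at 29.8 and 57.7 against 274 and 248 CPM (-2.63 ± 0.15). Against the remaining root cap cells alone, PH02Gene33832 (log2 fold change -0.09, adjusted p = 0.784) and PH02Gene33183 (-0.51, adjusted p = 0.0993) missed the test.

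By the same minimum of 50 CPM, the largest difference upward within matched Cluster 8 was in PH02Gene46749, germin-like protein 1-1, of a family of wall-bound oxidases. It stood at 105 and 97.3 CPM above the threshold and 7.26 and 26.3 CPM below it (log2 fold change 2.48 ± 0.26, adjusted p = 4.41e-08). Its ratio was 14.4 in replicate 1 but 3.70 in replicate 2, where PH02Gene07522 (4.53), PH02Gene31423 (3.76) and PH02Gene21616 (3.75) were further apart, so its first place rests on replicate 1. PH02Gene31423 (2.26 ± 0.23), PH02Gene15427 (2.18 ± 0.18), PH02Gene07522 (2.18 ± 0.20) and PH02Gene21616 (1.83 ± 0.18) followed, and the last 3 were also among the 14 largest against all other cells. Downward, PH02Gene40611 stood at 20.9 and 22.8 against 69.01 and 58.9 CPM (-1.55 ± 0.22, lost at a resolution of 0.6 with adjusted p = 0.115) and PH02Gene13083 at 49.7 and 41.1 against 124 and 111 CPM (-1.39 ± 0.18). In all, 464 genes (3.38%) were at least 2-fold higher and 159 (1.16%) at least 2-fold lower within the cluster, compared with 5252 (20.6%) and 3467 (13.6%) against all other cells.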

How the data were processed

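Single-cell RNA-seq libraries were made with a droplet 3' protocol from enzyme-released protoplasts of basal root tips, in 2 biological replicates. The authors deposited raw UMI counts per gene and cell from Cell Ranger 5.0.1 (STAR version not given in the sources used here), with no normalization. The total was 36419750 UMIs in replicate 1 and 42126823 in replicate 2, over 50936 genes. The gene IDs name no mitochondrial genes, so the study's mitochondrial filter was not applied and cells it removed may be present.

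Counts of cells with more than 500 genes and at least 4000 UMIs were summed per replicate over PH02Gene00514-high cells (at least 500 CPM) and over the other cells, without PH02Gene00514. The sums were tested with edgeR 4.0.16 in R 4.3.3 (filterByExpr, TMM, quasi-likelihood test, no block) with Benjamini-Hochberg adjustment over all genes tested and a threshold of 0.05. A log2 fold change is PH02Gene00514-high over other cells, given with its SE. The biological coefficient of variation was 0.0588 for all other cells and 0.101 within matched Cluster 8. Replicate numbers name the libraries, so both sums of a number come from the same library, although their deviations correlated at only 0.036 over 25543 genes.

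All cells of more than 500 genes were clustered with Seurat 5.3.0 (log normalization, 2000 variable genes, 20 principal components, resolution 0.8), and each numbered cluster of the study was paired with the new cluster showing the highest mean z-score over its markers, so that a new cluster could receive several numbers or none. The 57 genes left out of the variable genes would otherwise have supplied 30 of them. Thinning drew 4000 UMIs per cell. Intervals are exact Clopper-Pearson and, like all shares, cover counting error only. The tests were tested on simulated data with known changes. Python 3.11.15, numpy 2.4.6, scipy 1.17.1, pandas 2.3.3 and matplotlib 3.10.9 were used for the rest.

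Named genes were the study's markers and PH02Gene16535, the 14 higher and 10 lower genes of largest fold change with at least 50 CPM, the 5 and 5 of the same kind within matched Cluster 8, and up to 4 per list with at least 20 CPM, of which the text gives a selection. Gene lists came from descriptions, orthologs and families in the study's tables, which were made on these same libraries, so no list is independent evidence. The cells, lists and rules were chosen with earlier results of these data known. Alternatives were other thresholds, depth limits, clusterings, reference cells, DESeq2 1.42.0, no low-count filter, a replicate block, and each replicate left out.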

Additional observations from a re-analysis of the deposited data

Results flagged for a closer look

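Cells under 4000 UMIs stood outside the comparisons but also carried PH02Gene00514. Of 8211 such cells with more than 500 genes, 467 (5.69%; 250 in replicate 1 and 217 in replicate 2) held at least 3 of its UMIs and at least 500 CPM. Of these 467, 238 lay in matched Cluster 10 (among 775 of its shallow cells), 68 in the cluster matched to Clusters 1 and 5 (among 2014), 41 in matched Cluster 8 (among 117) and 22 in matched Cluster 0 (among 3551). A level of 500 CPM without a minimum of UMIs was reached by 2487 cells (30.3%), 1480 of them on 1 UMI. Summed over all cells under 4000 UMIs, PH02Gene00514 stood at 428 and 409 CPM in replicates 1 and 2, against 195 and 221 CPM in the deeper cells. The other aquaporins were also high in the shallow cells of matched Cluster 10, taken at any PH02Gene00514 level. PH02Gene26718 stood there at 389 and 450 CPM, PH02Gene19725 at 4970 and 5082 CPM and PH02Gene16291 at 137 and 114 CPM. All 6 stood above their level in PH02Gene00514-high cells in both replicates. PH02Gene19725 stood at 1515 and 1456 CPM in the shallow cells of matched Clusters 1 and 5. In those of matched Cluster 0 it stood at 1164 and 1106 CPM, against 311 and 375 CPM in the deeper other cells. In these clusters too, all 6 stood above their level in the deeper other cells in both replicates. Reads of a low-depth cell give its level only coarsely, so no test was made.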

How the results depend on the processing

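Against all other cells the counts lay between 10866 (DESeq2) and 16088 (no low-count filter), except with only PH02Gene00514-high cells outside matched Cluster 8 (5019) and with only the other cells of the root cap clusters as reference (9981); both were alternatives chosen after the data were seen, as were those with only cells of matched Cluster 8 and without matched Cluster 10, shared barcodes or the larger unmatched cluster. DESeq2 moved the median log2 fold change of all genes from -0.05 to 0.16 and the missing filter to -0.17. Within matched Cluster 8, DESeq2 called 757 genes, a resolution of 0.6 gave 453 and no filter 1555, with a median of 0.11 in the last. The replicate block gave 15607 genes against all other cells and 2420 within matched Cluster 8, and among the genes named it changed the call of PH02Gene28983 only.

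All 6 aquaporins kept their direction and their call in every alternative that had a test. Against all other cells their log2 fold changes ran from 1.21 (PH02Gene03621) to 4.09 (PH02Gene26718). Within matched Cluster 8 they ran from 0.76 (PH02Gene16291) to 1.97 (PH02Gene26718), with a highest adjusted p of 0.0187.

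The number of PH02Gene00514-high cells followed the rule, with 1463 at 250 CPM, 384 at 1000 CPM, 1213 from 2000 UMIs, 400 from 8000 UMIs, and 377 to 443 with either replicate left out. Their share in the main cluster was 61.0% at a resolution of 0.6, 62.2% at 1.0, 61.8% with 30 components and 74.5% at 1000 CPM, and 63.2% to 63.9% with either replicate left out. At a resolution of 0.6 and with 30 components the main cluster was matched to Clusters 8 and 10 together, so it is not the same cluster. The 30 components came from an exact decomposition, since with the approximate one their clusters depended on floating-point details.

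Of 1224 alternative values for 68 named genes against all other cells, 19 lost the call, 3 gained it and 9 reversed. With only cells outside matched Cluster 8, PH02Gene04869 went to -0.11 and PH02Gene48860 to -0.72, neither passing. Against the root cap clusters, PH02Gene03497 (-0.34), PH02Gene07817 (-0.75), PH02Gene08613 (0.80), PH02Gene17668 (-0.46), PH02Gene45651 (-0.64), PH02Gene46530 (0.79) and PH02Gene48860 (-0.73) reversed and passed. Of 234 values for 34 genes within matched Cluster 8, 11 lost the call, 7 of them at a resolution of 0.6, 1 gained it and none reversed. The cause was not tested. Refits without a replicate leave no residual degrees of freedom and give values only.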
